A study of Mus musculus with 18 samples.

Results

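The transcripts of 9 transcription factors that set the identity of invariant natural killer T (iNKT) cell subsets were followed through the series: Tbx21, Eomes, Zbtb16, Gata3, Zbtb7b, Rora, Maf, Runx1 and Runx3. They were chosen by gene symbol, with earlier results of these data known. All 9 were found among the 23337 genes of the count table. Thymic iNKT cells of 2 mouse strains, WT and SKG, were sorted and profiled by RNA-seq, and the labels place both on a BALB/c background. SKG mice carry a spontaneous point mutation in Zap70, the tyrosine kinase that relays signals from the T cell receptor (TCR), and per the study their TCR signals are weaker. Both strains descend from an intercross of SKG with BALB/cJ, but the mice compared came from separate WT and SKG matings and so were not littermates. The comparisons ask how iNKT cells that signal through mutant ZAP70 differ from WT cells of the same subset. The 6 groups were WT NKT1, WT NKT2, WT NKT17, SKG NKT1, SKG NKT2 and SKG NKT17, each with 3 libraries and 18 in all, and no treatment is named in the labels. All cells bound a CD1d tetramer, and the gates were ICOS-low CD49a+ for NKT1, CD49a- Sdc-1- with high ICOS, CD4 and TCRβ for NKT2, and CD49a- ICOS-high Sdc-1+ for NKT17. None of the 9 factors was used in these gates. The age and number of mice behind each library are not given in the sources used here, and p-values measure the spread between these libraries.

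iNKT cells acquire effector programmes in the thymus, and transcription factors are the handles by which the programmes are told apart. Zbtb16 encodes PLZF, which all iNKT cells need and which is highest in NKT2 cells. Tbx21 encodes T-bet, which drives the interferon-γ programme of NKT1 cells. Eomes is its T-box relative and is prominent in NK cells and memory CD8 T cells. Gata3 supports T cell development and type 2 cytokines, and Zbtb7b encodes ThPOK, which promotes the CD4 fate and represses cytotoxic genes. Rora encodes RORα, a nuclear receptor that takes part in IL-17 programmes. c-Maf, from Maf, takes part in IL-17, IL-4 and IL-21 programmes. Runx1 and Runx3 encode DNA-binding subunits that pair with CBFβ, and Runx3 silences Cd4 and promotes cytotoxic genes.

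The promoters of the members with the clearest changes between subsets or genotypes are shown as the 250 bases before the annotated start of transcription, 5′ to 3′ on the strand of the gene, from RefSeq on GRCm38.p6. RefSeq entries were found for 7 members with 10 promoters, and none was used here for Zbtb16 and Maf. Capitals mark matches to motifs searched on both strands.
Tbx21 (chr11:97115332-97115581, minus strand): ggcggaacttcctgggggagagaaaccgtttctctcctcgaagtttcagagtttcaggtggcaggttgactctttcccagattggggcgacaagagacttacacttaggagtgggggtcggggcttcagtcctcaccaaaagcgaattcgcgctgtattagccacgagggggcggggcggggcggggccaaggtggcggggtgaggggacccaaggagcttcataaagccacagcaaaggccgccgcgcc
Rora (chr9:68653536-68653785, plus strand): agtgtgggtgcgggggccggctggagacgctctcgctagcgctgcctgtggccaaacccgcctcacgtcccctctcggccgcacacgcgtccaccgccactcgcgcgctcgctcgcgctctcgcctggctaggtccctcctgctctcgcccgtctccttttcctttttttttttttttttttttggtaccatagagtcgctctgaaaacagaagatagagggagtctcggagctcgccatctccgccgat
Runx1 distal (chr16:92826075-92826324, minus strand): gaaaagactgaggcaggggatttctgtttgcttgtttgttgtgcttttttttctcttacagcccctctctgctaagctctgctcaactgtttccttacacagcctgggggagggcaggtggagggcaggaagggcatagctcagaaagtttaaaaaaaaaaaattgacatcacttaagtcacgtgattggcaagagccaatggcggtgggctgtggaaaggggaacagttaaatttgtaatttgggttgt
Runx3 distal (chr4:135120395-135120644, plus strand): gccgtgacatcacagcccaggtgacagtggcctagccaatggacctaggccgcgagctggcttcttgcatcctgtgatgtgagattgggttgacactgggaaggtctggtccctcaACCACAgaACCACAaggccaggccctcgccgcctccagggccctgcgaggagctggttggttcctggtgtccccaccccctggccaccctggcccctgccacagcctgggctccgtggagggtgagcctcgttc
The RUNX motif TGTGGT was found in 2 of the 10 promoters. The distal promoter of Runx3 holds it in the other orientation at 134 to 129 and at 126 to 121 bases before the start, and the proximal promoter of Zbtb7b holds it at 89 to 84 bases before the start. This motif is present in 14.0% of 32851 promoters of the same length. The T-box motif AGGTGTGA, the GATA motif AGATAA, the ROR motif AGGTCA and the MAF motif TGCTGAC were in none of the 10, against 1.12%, 9.99%, 14.0% and 3.81% of all promoters. The pair of matches in Runx3 does not overlap, the promoters shown for Tbx21, Rora and Runx1 hold no match, and a match is a description of letters only.

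The libraries held 4391029 to 8895917 counts, and 3 counts correspond to 0.362 to 0.661 counts per 1000000 (CPM), the unit of the levels below after scaling by the TMM method. All 6 T cell markers were detected in each group, at a summed 6354 to 8624 CPM. The summed markers of each subset were highest in its own libraries. The lists hold genes whose products were used in the gates (Itga1 for CD49a, Icos, Cd4 and Sdc1). NKT2 markers were the least specific, at 1923 to 2628 CPM in NKT2, 1163 to 1635 CPM in NKT17 and at most 420.5 CPM in NKT1 libraries. NKT1 markers summed to 3444 to 4592 CPM in NKT1 libraries and at most 364.2 CPM elsewhere, and the 5 NKT17 markers given here (Sdc1, Il17a, Il23r, Il1r1 and Ccr6) to 1327 to 1514 CPM in NKT17 libraries and at most 5.11 CPM elsewhere. The DP and CD8 cell markers summed to 14.3 to 47.5 CPM in SKG NKT17 and 5.27 to 12.5 CPM in WT NKT17, with Rag1, Rag2 and Dntt at 0 in both groups. The B cell markers summed to 24.8 to 40.7 CPM in SKG NKT17 and 7.82 to 11.1 CPM in WT NKT17, with Pax5 at 0 in both and Ms4a1 and Ebf1 also at 0 in SKG NKT17. Cd79b held nearly all of these sums, at 39.2, 24.6 and 39.98 CPM in SKG NKT17 and 10.2, 9.91 and 7.55 CPM in WT NKT17. Myeloid markers stayed at or below 19.9 CPM, and the globin genes Hbb-b1 and Hba-a1 had no count.

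Between subsets, 6 factors passed both the test and the fold minimum in at least 1 comparison, and Gata3 and Zbtb7b in none. By the study's own limits, a gene counted as called at an adjusted p under 0.1 (Benjamini-Hochberg, over all 11118 genes tested by edgeR's quasi-likelihood method) together with a change of 1.5-fold or more. Eomes did not pass the filter on low counts, so 8 of the 9 factors were tested. In WT cells 5 of the 8 were called between NKT1 and NKT2, where 27.5% of all genes were called. Between NKT1 and NKT17 the number was 6 of 8, against 24.7% of all genes, and between NKT17 and NKT2 it was 5 of 8, against 20.0%. In SKG cells the same comparisons gave 5 of 8 with 18.7% of all genes called, 6 of 8 with 22.8%, and 6 of 8 with 18.8%. The median absolute log2 fold change of the 8 factors in WT was 1.31 between NKT1 and NKT2, 2.06 between NKT1 and NKT17 and 1.17 between NKT17 and NKT2, against 0.405, 0.355 and 0.329 for all genes tested. In SKG it was 1.39, 1.42 and 0.939, against 0.313, 0.344 and 0.306. The factors were chosen as ones that set subset identity, with earlier results known, so these values do not test them as a set. In bulk samples, fewer cells that express a factor and less RNA of it per cell cannot be told apart.

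**Figure D1:**
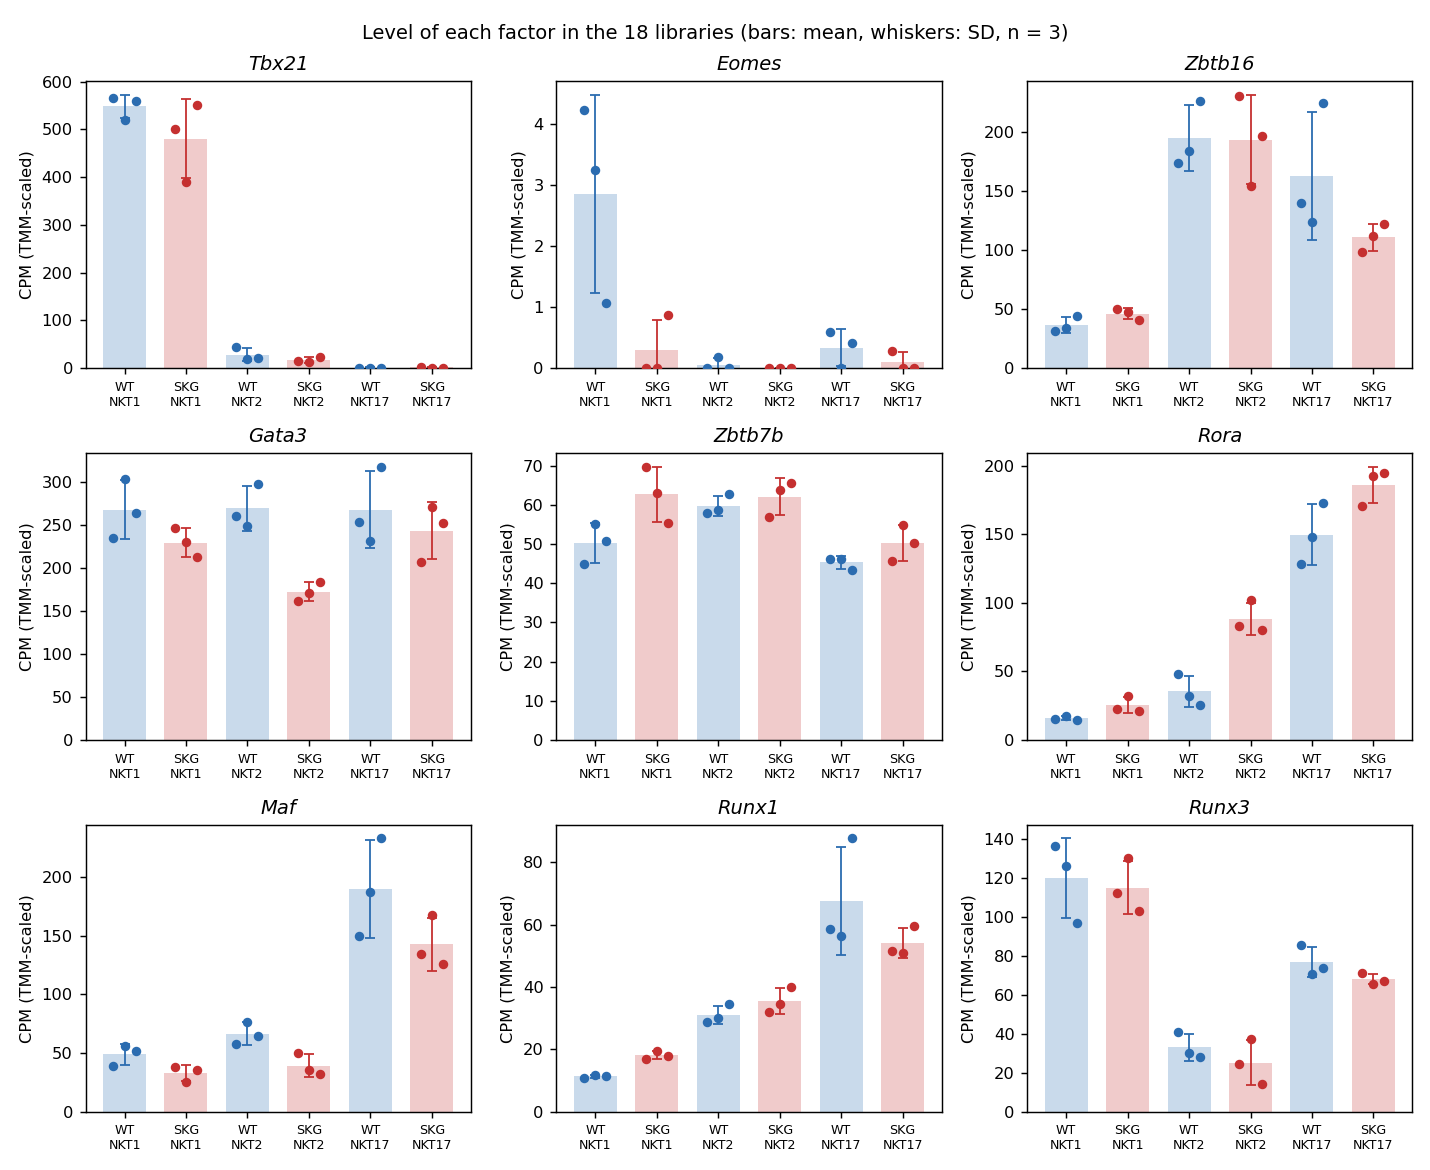
Level of each factor in CPM (linear axis, own scale for each gene) in the 3 libraries of each group. Bars give the mean and whiskers the SD, with WT in blue and SKG in red. Tbx21 is high in NKT1 libraries alone, and Rora, Maf and Runx1 are highest in NKT17. Gata3 and Zbtb7b vary least, with Gata3 lowest in SKG NKT2.

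Tbx21 (chr11:96959385-96976645, minus strand, build NCBIM37) was the factor with the widest range. WT NKT1 libraries held 565, 520 and 559 CPM, WT NKT2 libraries 44.6, 18.2 and 21.99 CPM, and WT NKT17 libraries 0.195, 1.04 and 1.24 CPM. The groups did not overlap, and the highest group mean was 665 times the lowest. The log2 fold change was 4.29 (SE 0.42) for WT NKT1 over NKT2, 9.26 (SE 0.61) for NKT1 over NKT17 and -4.97 (SE 0.64) for NKT17 over NKT2, with edgeR adjusted p of 3.8e-06, 5.09e-08 and 6.45e-05. In WT NKT17 these levels rest on 1, 6 and 9 counts, close to the 3 counts taken as the floor. SKG cells kept the order, with 501, 389 and 550 CPM in NKT1, 15.2, 12.3 and 24.3 CPM in NKT2, and 2.98, 0 and 1.13 CPM in NKT17. The ranges of WT and SKG overlapped within each subset.

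Eomes (chr9:118387330-118395250, plus strand, NCBIM37), the relative of T-bet, had at most 35 counts in any library. DESeq2, run without the filter on low counts, called Eomes between NKT1 and NKT2 in WT. It called Eomes in no other comparison, SKG against WT in NKT1 included. WT NKT1 libraries held 35, 17 and 6 counts, or 2.83 CPM over the summed libraries (exact Poisson 95% interval 2.15 to 3.66). SKG NKT1 libraries held 0, 0 and 5 counts, or 0.302 CPM (0.0981 to 0.705). The libraries of these groups did not overlap, at 4.23, 3.25 and 1.06 CPM against 0, 0 and 0.866 CPM. The exact two-sided permutation test gave p = 0.1, the smallest that 3 libraries against 3 allow. The remaining groups held 1 count in WT NKT2, 0 in SKG NKT2, 6 in WT NKT17 and 2 in SKG NKT17, and 0 counts in SKG NKT2 allow up to 0.196 CPM with 3 counts as the limit, or up to 0.241 CPM by the exact Poisson interval. These intervals and floors cover counting error only.

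Runx3 (chr4:134676567-134733905, plus strand, NCBIM37) was ordered NKT1, NKT17, NKT2 in both genotypes. WT libraries held 136, 126 and 96.7 CPM in NKT1, 85.5, 70.8 and 73.8 CPM in NKT17, and 41.1, 29.9 and 28.3 CPM in NKT2, without overlap between neighbours. The difference of NKT1 over NKT2 was 1.86 on the log2 scale (SE 0.23, edgeR adjusted p = 2.46e-06), and that of NKT17 over NKT2 was 1.22 (SE 0.23, adjusted p = 0.000462). The smaller step of NKT1 over NKT17 was 0.64 (SE 0.22, adjusted p = 0.035). This last call was lost without WT NKT1 replicate 1 (0.54), WT NKT17 replicate 2 (0.57) or WT NKT17 replicate 3 (0.61, adjusted p = 0.1). SKG libraries held 112, 130 and 103 CPM in NKT1, 71.0, 65.8 and 67.2 CPM in NKT17, and 24.2, 37.4 and 14.1 CPM in NKT2, and all 3 subset differences were called.

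Zbtb16 (chr9:48462416-48644050, minus strand, NCBIM37) was lowest in NKT1 cells. WT NKT1 libraries held 31.8, 34.0 and 44.5 CPM, against 173, 184 and 226 CPM in NKT2 and 140, 123 and 224 CPM in NKT17. NKT1 lay wholly below both other subsets, by log2 differences of -2.41 (SE 0.21) against NKT2 and -2.15 (SE 0.20) against NKT17, with edgeR adjusted p of 1.08e-08 and 4.36e-08. NKT2 and NKT17 overlapped in WT, and their log2 difference of -0.26 (95% interval -0.66 to 0.14) was not called. Without WT NKT17 replicate 3, the library at 224 CPM, it was -0.57 (adjusted p = 0.021), still under the 1.5-fold minimum, and -0.09 to -0.33 without any other 1 of these libraries. In SKG cells the levels were 49.98, 47.1 and 41.1 CPM in NKT1, 230, 154 and 196 CPM in NKT2, and 98.6, 112 and 122 CPM in NKT17. Here NKT17 lay wholly below NKT2, by -0.81 on the log2 scale (SE 0.19, adjusted p = 0.00393). The difference between the genotypes in this step, -0.55 on the log2 scale (95% interval -1.11 to 0.02), did not pass the test (adjusted p = 0.486) and was -0.23 without that same library.

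Gata3 (chr2:9778705-9811661, minus strand, NCBIM37) was at nearly one level across the WT subsets. Its libraries held 235, 304 and 265 CPM in WT NKT1, 261, 249 and 299 CPM in WT NKT2, and 254, 232 and 318 CPM in WT NKT17. All of these ranges overlapped, and the 3 log2 differences between WT subsets were -0.01 or nearer to 0, with 95% intervals inside -0.28 to 0.27. In SKG cells NKT2 was lowest, at 162, 171 and 184 CPM, wholly below NKT1 at 247, 230 and 213 CPM and NKT17 at 207, 271 and 253 CPM. NKT1 over NKT2 was 0.41 (adjusted p = 0.0251) and NKT17 over NKT2 was 0.50 (adjusted p = 0.0069) on the log2 scale by edgeR, both under the 1.5-fold minimum and so not called. Without SKG NKT17 replicate 1 the second of these reached 0.60 and was called.

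Zbtb7b (chr3:89181566-89198698, minus strand, NCBIM37) varied least, with a ratio of 1.38 between its highest and lowest group means. Its group means ran from 45.3 ± 1.67 CPM (SD, n = 3) in WT NKT17 to 62.7 ± 7.12 CPM in SKG NKT1. WT NKT17 lay wholly below WT NKT2, at 46.3, 46.3 and 43.4 CPM against 57.8, 58.7 and 62.7 CPM, but the log2 difference of -0.40 (SE 0.14, edgeR adjusted p = 0.0409) was under the 1.5-fold minimum. The gene Gm15417, which overlaps Zbtb7b in the annotation, had up to 45 counts in a library, and whether the counting used strand is not given in the sources used here.

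Rora (chr9:68501593-69236053, plus strand, NCBIM37) rose in steps from NKT1 through NKT2 to NKT17. WT libraries held 15.3, 17.4 and 14.5 CPM in NKT1, 48.2, 32.3 and 25.7 CPM in NKT2, and 129, 148 and 173 CPM in NKT17. No step overlapped, with log2 differences of -1.17 (SE 0.20) for NKT1 against NKT2 and 2.09 (SE 0.19) for NKT17 over NKT2, at edgeR adjusted p of 9.31e-05 and 1.97e-08. The SKG libraries kept the order at higher levels, with 22.5, 31.9 and 21.5 CPM in NKT1, 83.3, 102 and 80.6 CPM in NKT2, and 171, 193 and 195 CPM in NKT17. The SKG step of NKT1 against NKT2 was -1.81 (SE 0.20) and that of NKT17 over NKT2 was 1.07 (SE 0.18).

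Maf (chr8:118206842-118231694, minus strand, NCBIM37) was highest in NKT17 cells and was not called between NKT1 and NKT2. WT libraries held 150, 187 and 233 CPM in NKT17, 57.8, 76.9 and 64.7 CPM in NKT2, and 38.6, 56.0 and 52.1 CPM in NKT1. NKT17 exceeded NKT2 by 1.52 (SE 0.20, edgeR adjusted p = 5.16e-06) and NKT1 against NKT17 was -1.96 (SE 0.20, adjusted p = 9.3e-08) on the log2 scale, with no overlap. NKT1 and NKT2 did not overlap in WT either, yet their log2 difference of -0.45 (SE 0.20, adjusted p = 0.096) was under 1.5-fold. In SKG NKT17 the libraries held 134, 168 and 126 CPM, and NKT17 over NKT2 was 1.87 (SE 0.21, adjusted p = 4.45e-07).

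Runx1 (chr16:92601712-92826311, minus strand, NCBIM37) had the same order as Rora and the opposite direction to Runx3 between NKT1 and NKT17. WT libraries held 10.9, 11.8 and 11.5 CPM in NKT1, 28.8, 30.1 and 34.4 CPM in NKT2, and 58.8, 56.5 and 87.7 CPM in NKT17. All 3 steps were free of overlap and called, with log2 differences of -1.45 (SE 0.19) for NKT1 against NKT2, -2.57 (SE 0.19) for NKT1 against NKT17 and 1.12 (SE 0.18) for NKT17 over NKT2, at edgeR adjusted p of 3.04e-06, 3.51e-10 and 5.18e-05. In SKG cells the range was narrower, from 16.9, 19.6 and 17.9 CPM in NKT1 to 51.6, 51.0 and 59.7 CPM in NKT17. The SKG step of NKT17 over NKT2, 0.60 (SE 0.18, adjusted p = 0.0171), was the smallest of the called differences between subsets. It was under 1.5-fold with upper-quartile scaling (0.58) and without SKG NKT2 replicate 1 (0.54), SKG NKT2 replicate 2 (0.58) or SKG NKT17 replicate 3 (0.53).

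**Figure D2:**
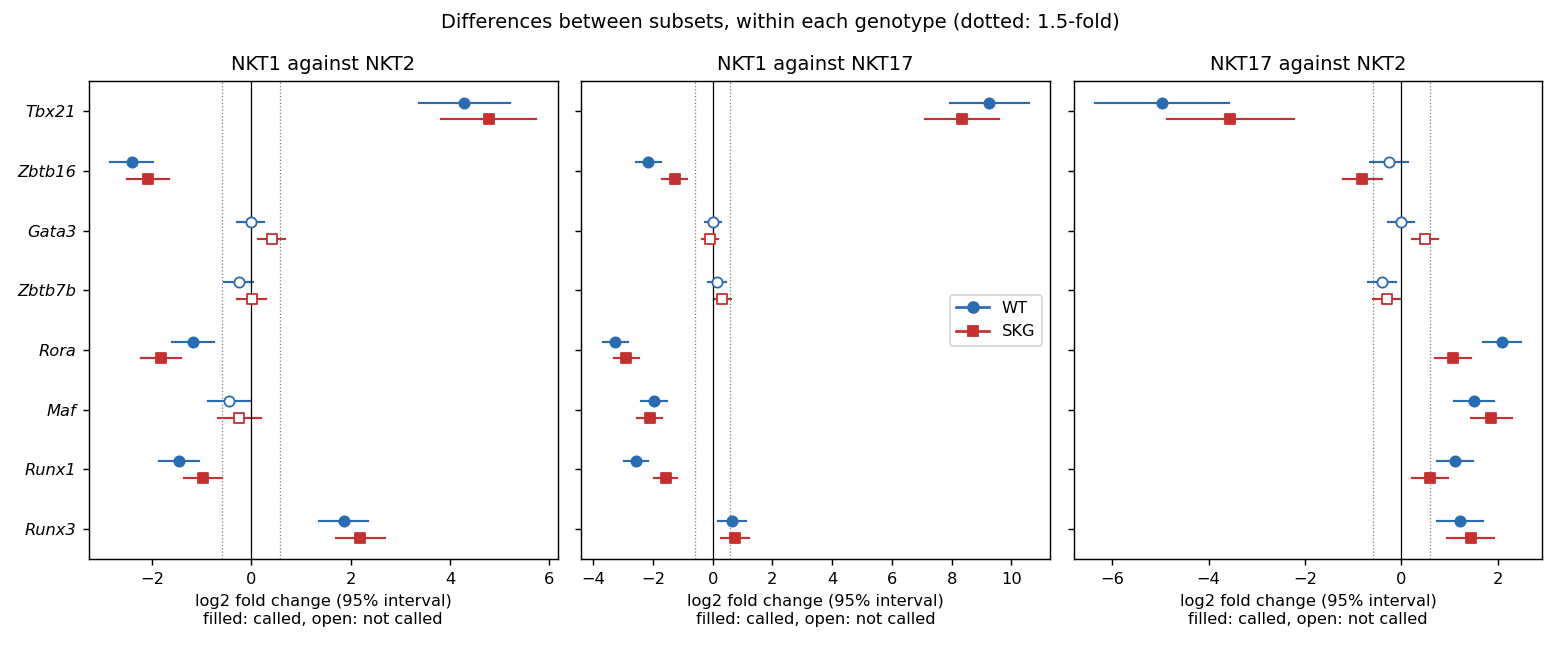
Log2 fold change of each tested factor between subsets, in WT (blue circles) and SKG (red squares) cells, with 95% intervals. Filled symbols were called and open symbols were not, and dotted lines mark 1.5-fold. Gata3 and Zbtb7b have open symbols in all 6 comparisons, and Tbx21, Rora, Runx1 and Runx3 have filled symbols in all 6.

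The levels of different factors were compared as CPM per kilobase of annotated exon (RPKM), and the annotated exons of Rora and Maf hold long stretches outside the coding part, so this scale depends on the isoforms present. In NKT1 cells Tbx21 ranked first, at 220 ± 9.88 RPKM (SD, n = 3) in WT and 193 ± 33.2 RPKM in SKG, followed by Gata3 at 67.4 ± 8.66 and 57.8 ± 4.27 RPKM. Gata3 ranked first in NKT2 and NKT17 of both genotypes, at 43.4 to 67.8 RPKM in the group means, and Zbtb16 was second, at 21.7 to 38.1 RPKM. Eomes was last in every group. Rora had rank 8 of 9 in WT NKT2, at 2.70 ± 0.884 RPKM, and rank 5 in SKG NKT2, at 6.77 ± 0.890 RPKM.

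The balance between factors was also read per length. The ratios were added after seeing the data, so their p-values are no independent support. The ratio of Gata3 to Zbtb16 in RPKM had means of 9.53 in WT and 6.41 in SKG NKT1, 1.79 and 1.18 in NKT2, and 2.19 and 2.83 in NKT17. WT and SKG did not overlap in any subset (exact permutation test, two-sided, p = 0.1 in each, the smallest possible), with SKG lower in NKT1 and NKT2 and higher in NKT17. Of the genes in this ratio, only Gata3 in NKT2 was called between genotypes. Gata3 and Zbtb16 had log2 differences of -0.22 and 0.33 in NKT1 and of -0.14 and -0.56 in NKT17, none of them called.

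The balance of the RUNX pair separated NKT1 from the other subsets. The ratio of Runx3 to Runx1 in RPKM was 19.6, 16.6 and 13.1 in WT NKT1, 2.22, 1.55 and 1.28 in WT NKT2, and 2.27, 1.95 and 1.31 in WT NKT17. NKT1 lay far above NKT2 and NKT17, and the last 2 overlapped. In SKG NKT1 the ratio was 10.3, 10.4 and 9.00, a mean of 0.603 times that of WT NKT1 with no overlap (exact permutation test, two-sided, p = 0.1, the smallest possible). This ratio too was added after seeing the data. Runx3 had a log2 difference of -0.06 in NKT1, so the lower ratio mostly restates the rise of Runx1 given below. The SKG and WT ratios overlapped in NKT2 (exact permutation p = 0.4) and in NKT17 (exact permutation p = 0.8). Their partner Cbfb was called in none of the 3 comparisons of genotypes, with group means of 134 to 216 CPM.

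**Figure D3:**
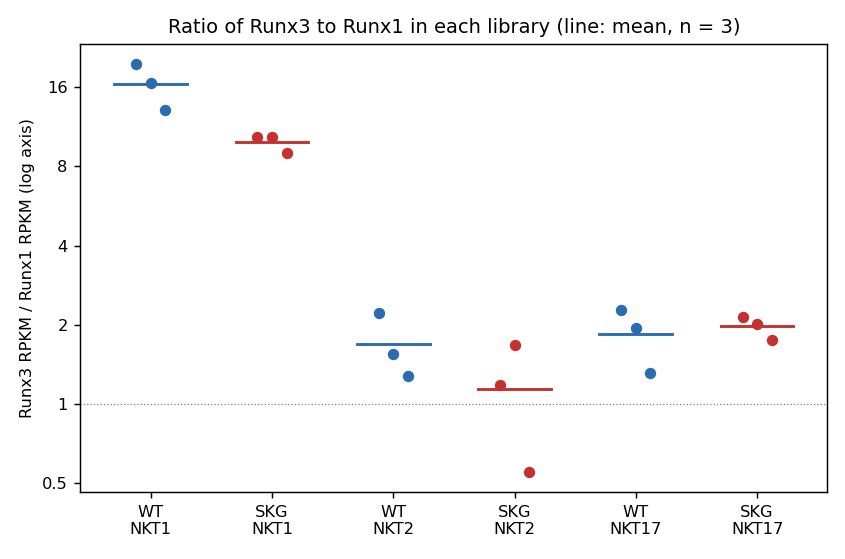
Ratio of Runx3 to Runx1 (RPKM over RPKM, log axis) in each library, with the group mean as a line (n = 3) and the dotted line at equal levels. WT NKT1 lies between 13.1 and 19.6, SKG NKT1 between 9.00 and 10.4, and the NKT2 and NKT17 libraries between 0.551 and 2.27.

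Across the 18 libraries, Tbx21 and Runx1 had a Pearson correlation of -0.935, Tbx21 and Rora of -0.924, and Rora and Runx1 of 0.927 in log2 CPM. Zbtb16 and Runx3 had -0.821. These values describe 6 groups of libraries and mostly follow the subset. The genes most like each factor were found by the same measure among the 8619 tested genes whose mean count was 50 or more. For Tbx21 they were 6330512M04Rik (0.982), Lrrk1 (0.978) and the chemokine receptor gene Cxcr3 (0.977), and for Runx3 they were Pdgfb (0.931), Hip1r (0.930) and Spice1 (0.930). For Zbtb16 they were Igfbp4 (0.962), Ociad2 (0.956) and Slc39a11 (0.948). For Rora they were the retinoic acid receptor gene Rarg (0.980), Stt3b (0.976) and 2010015L04Rik (0.975), for Runx1 She (0.973), Bri3bp (0.965) and Mtap7 (0.959), and for Maf Acpp (0.958), the tyrosine kinase gene Blk (0.947) and Lipa (0.943). For the factors not called between subsets they were Ssr1 (0.842), Pppde2 (0.835) and Sept11 (0.823) for Gata3, and Galnt10 (0.842), Vrk1 (0.822) and Nop2 (0.818) for Zbtb7b. By Spearman's rho, at least 1 of the 3 genes named stayed among the best 3 for each factor except Maf.

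Between SKG and WT cells of the same subset, at most 3 of the 8 tested factors were called in any subset. In NKT1, 2 of the 8 tested were called and both were higher in SKG, where 3.27% of all genes were called (1.46% higher, 1.82% lower). In NKT2, 3 of 8 were called, 1 higher and 2 lower, against 7.95% of all genes (3.90% higher, 4.05% lower). In NKT17, edgeR called 0 of 8, against 8.37% of all genes (3.83% higher, 4.54% lower). There 2 had an unadjusted p under 0.05, and DESeq2 called 0. The signature factors of the subsets, Tbx21 in NKT1 and Zbtb16 in NKT2, were called in neither, with log2 differences of -0.19 (95% interval -0.97 to 0.59) and -0.01 (-0.41 to 0.39).

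Rora rose in SKG cells of NKT1 and NKT2. In NKT2 the WT libraries held 48.2, 32.3 and 25.7 CPM and the SKG libraries 83.3, 102 and 80.6 CPM, without overlap. The log2 fold change was 1.33 (SE 0.19, edgeR adjusted p = 5.53e-05) and was called in all 15 alternatives, with adjusted p up to 0.00124. Rora itself reached a mean of 88.6 CPM in SKG NKT2 against 186 CPM in SKG NKT17. The NKT17 markers given above summed to 1.45 to 4.11 CPM in SKG NKT2 and 1.05 to 5.11 CPM in WT NKT2. In SKG NKT17 they summed to 1483 to 1514 CPM. The part of NKT17 cells in the Rora level was not tested. In NKT1 the levels were 15.3, 17.4 and 14.5 CPM in WT and 22.5, 31.9 and 21.5 CPM in SKG, also without overlap, and the log2 fold change was 0.68 (SE 0.20, adjusted p = 0.0827). In NKT17 the difference was 0.31 (95% interval -0.06 to 0.69) and was not called, and the libraries overlapped. The effect of SKG on Rora was smaller in NKT17 than in NKT2, by -1.02 on the log2 scale (SE 0.26, adjusted p = 0.0544). That call was lost without WT NKT2 replicate 2 (-0.96) or 3 (-0.82), WT NKT17 replicate 3 (-0.89), SKG NKT2 replicate 2 (-0.91), or SKG NKT17 replicate 1 (-0.96) or 3 (-1.06). Between NKT2 and NKT1 the effect on Rora differed by 0.65 (adjusted p = 0.280), and it was called without WT NKT2 replicate 1 (0.91, adjusted p = 0.0702).

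Runx1 rose in SKG NKT1 and was called in neither other subset. The WT libraries held 10.9, 11.8 and 11.5 CPM and the SKG libraries 16.9, 19.6 and 17.9 CPM, which do not overlap. On the log2 scale the change was 0.67 (SE 0.19, edgeR adjusted p = 0.0725). In NKT2 the difference was 0.19 (95% interval -0.18 to 0.57), and in NKT17 it was -0.33 (-0.69 to 0.04), or -0.08 without WT NKT17 replicate 3. The SKG effect on Runx1 differed between NKT17 and NKT1 by -0.99 (SE 0.26, adjusted p = 0.0433), a comparison in which 4.17% of all genes and 1 of the 8 factors were called. This call was lost without WT NKT17 replicate 3 (-0.77, adjusted p = 0.114), the WT library with the highest Runx1. Between NKT2 and NKT1 the effect on Runx1 was not shown to differ, at -0.48 (SE 0.27, adjusted p = 0.457).

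The NKT1 calls of Rora and Runx1 were close to the threshold. With only the NKT1 libraries in the fit, the log2 fold changes were 0.70 and 0.69 but the adjusted p rose to 0.333 and 0.391. Runx1 was not called when any 1 of the 6 NKT1 libraries was left out, with log2 fold changes of 0.63 to 0.73 and adjusted p of 0.103 to 0.193. Rora was not called without WT NKT1 replicate 1 (adjusted p = 0.163), WT NKT1 replicate 3 (0.179), SKG NKT1 replicate 1 (0.108) or SKG NKT1 replicate 2 (0.349).

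Gata3 and Maf fell in SKG NKT2. Gata3 went from 261, 249 and 299 CPM in WT to 162, 171 and 184 CPM in SKG, without overlap, and fell by 0.64 on the log2 scale (SE 0.13, edgeR adjusted p = 0.00208). Without WT NKT2 replicate 3 the change was -0.56, under the 1.5-fold minimum. Maf went from 57.8, 76.9 and 64.7 CPM in WT to 50.4, 35.2 and 31.8 CPM in SKG, again without overlap, and fell by 0.77 (SE 0.20, adjusted p = 0.02). The Maf call was lost without WT NKT2 replicate 2 (adjusted p = 0.106), SKG NKT2 replicate 2 (0.102) or SKG NKT2 replicate 3 (0.126). Maf did not overlap between the genotypes in NKT1 and overlapped in NKT17. Its log2 differences there were -0.56 (95% interval -0.99 to -0.13, adjusted p = 0.188) and -0.41 (-0.82 to -0.01, adjusted p = 0.217), neither of them called. Without WT NKT1 replicate 1 the NKT1 value was -0.70 and was called. Those of Gata3 were -0.22 (-0.49 to 0.05) and -0.14 (-0.41 to 0.13). The SKG effects on Gata3 and Maf in NKT2 were not shown to differ from those in the other subsets, with adjusted p of 0.247 to 0.835. The difference for Gata3 between NKT17 and NKT2 was 0.50 and was called without WT NKT17 replicate 3 (0.66).

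Zbtb16 was the member nearest to a call in NKT17. The libraries held 140, 123 and 224 CPM in WT and 98.6, 112 and 122 CPM in SKG, and the lowest WT library was just above the highest SKG library. The log2 difference of -0.56 (SE 0.19, edgeR adjusted p = 0.0818) was below the 1.5-fold minimum. Without WT NKT17 replicate 3, the library at 224 CPM, it was -0.24. It was past both thresholds without WT NKT17 replicate 1 (-0.67) or WT NKT17 replicate 2 (-0.73). The difference of its SKG effect between NKT17 and NKT1, -0.88 (SE 0.28, adjusted p = 0.105), was not called by edgeR and was called by DESeq2 (-0.90, adjusted p = 0.0513) and with RLE scaling (-0.90, adjusted p = 0.0986). It was also called by edgeR without WT NKT1 replicate 3 (-1.05), WT NKT17 replicate 1 (-1.02) or WT NKT17 replicate 2 (-1.08), and it was -0.59 (adjusted p = 0.220) without WT NKT17 replicate 3.

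Tbx21, Runx3 and Zbtb7b were called in no subset. Runx3 had log2 differences of -0.06 (95% interval -0.52 to 0.40) in NKT1, -0.39 (-0.89 to 0.11) in NKT2 and -0.17 (-0.64 to 0.29) in NKT17. Its NKT2 value moved with single libraries. It was -0.80 (adjusted p = 0.037) and called without SKG NKT2 replicate 2, -0.10 without SKG NKT2 replicate 3 and -0.21 without WT NKT2 replicate 1. Zbtb7b had 0.32 (0.03 to 0.61, adjusted p = 0.296), 0.06 (-0.23 to 0.34) and 0.15 (-0.14 to 0.44), and its SKG NKT1 libraries, at 69.7, 62.9 and 55.4 CPM, did not overlap the WT ones, at 44.9, 55.2 and 50.7 CPM. The interval of Tbx21 was wide in NKT2, at -0.68 (-1.60 to 0.24), and wider in NKT17, at 0.73 (-1.39 to 2.86), where few reads were counted. For the difference of the SKG effect between NKT2 and NKT1, edgeR called 0 of 8 factors, against 3.87% of all genes. There 2 had an unadjusted p under 0.05, and DESeq2 called 0. Between NKT17 and NKT2, 1 of 8 was called, against 2.19% of all genes.

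**Figure D4:**
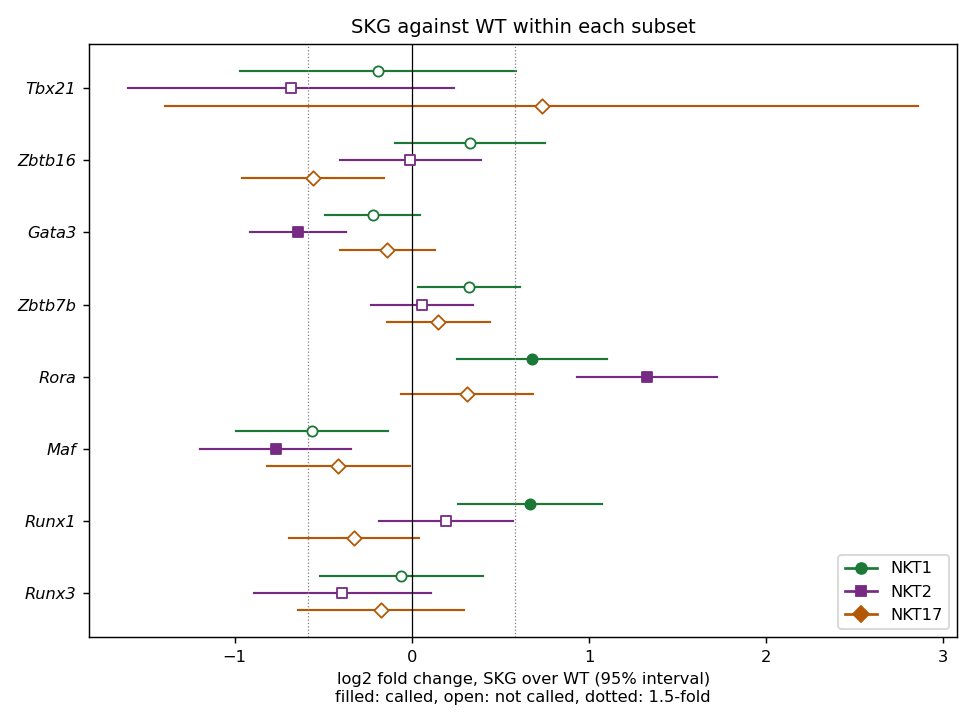
Log2 fold change of each tested factor in SKG over WT cells, in NKT1 (green circles), NKT2 (purple squares) and NKT17 (orange diamonds), with 95% intervals. Filled symbols were called, open symbols were not, and dotted lines mark 1.5-fold. The 5 filled symbols are Rora in NKT1 and NKT2, Runx1 in NKT1, and Gata3 and Maf in NKT2.

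Of 17 relatives and partners of the factors 11 were tested between genotypes, and 1 was called in NKT2, a share near the 7.95% of all genes. Runx2, the third RUNX gene, went from 0, 4 and 0 counts to 8, 12 and 6 counts (adjusted p = 0.0411). In NKT1, where 3.27% of all genes were called, edgeR called 0 of the 11 while 2 had an unadjusted p under 0.05, and DESeq2 called Runx2, which edgeR gave as -1.21 (SE 0.40, adjusted p = 0.122). In NKT17, where 8.37% of all genes were called, edgeR and DESeq2 called 0, and 1 had an unadjusted p under 0.05.

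Of 16 other regulators of iNKT cells that were tested, 2 were called in NKT1, 7 in NKT2 and 7 in NKT17, where 3.27%, 7.95% and 8.37% of all genes were called. For the difference of the SKG effect, edgeR called 0 of the 16 between NKT2 and NKT1, against 3.87% of all genes, while 5 had an unadjusted p under 0.05 and DESeq2 called 0. It called Hivep3 between NKT17 and NKT1 (-2.36, SE 0.66, adjusted p = 0.0569) and Sox13 between NKT17 and NKT2 (3.196, SE 0.43, adjusted p = 0.000681), against 4.17% and 2.19% of all genes. Sox13, an HMG-box factor of IL-17-producing T cells, fell from 181, 138 and 104 CPM in WT NKT2 to 7.71, 5.29 and 4.18 CPM in SKG NKT2, by 4.64 on the log2 scale (SE 0.34, edgeR adjusted p = 1.33e-07). It also fell in NKT17, by 1.44 (SE 0.27), and in NKT1, by 2.76 (SE 0.79), where it rests on 18, 4 and 21 counts in WT and 1, 0 and 4 in SKG. Myb, a factor of thymic progenitors, fell in SKG NKT2 by 2.55 (SE 0.52) and in SKG NKT17 by 5.00 (SE 0.64), where the libraries went from 85.1, 23.8 and 45.7 CPM to 0.425, 2.09 and 2.44 CPM. Hivep3 and Tox fell in both subsets, Tox by 0.91 (SE 0.19) in NKT2 and 0.99 (SE 0.19) in NKT17. Ikzf3 fell in NKT1 (-0.68, SE 0.16) and NKT2 (-0.73, SE 0.16), and Ets1 fell in NKT17 (-0.62, SE 0.18). Satb1, a chromatin organiser, rose in NKT2 (1.03, SE 0.23), Prdm1, which encodes Blimp-1, rose in NKT2 (2.21, SE 0.73) and NKT17 (1.79, SE 0.53), and Klf2, a factor of T cell egress, rose in NKT17 (2.54, SE 0.84).

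Genes that the factors are known to control were read in the same way. All 7 type 1 genes, among them Ifng and Cxcr3, were higher in NKT1 than in NKT2 and NKT17 in both genotypes, and all were called. Of all genes, 27.5% and 24.7% were called in these comparisons in WT, and 18.7% and 22.8% in SKG. Ifng, Cxcr3, Il2rb and Xcl1 are also among the NKT1 markers summed above. Between genotypes in NKT1, with Tbx21 not called, edgeR called 1 of the 7, against 3.27% of all genes, and 4 had an unadjusted p under 0.05. The chemokine gene Ccl5 rose in SKG NKT1 from 637, 274 and 444 CPM to 1230, 1393 and 1210 CPM (log2 1.499, SE 0.30, edgeR adjusted p = 0.0176). Ifng differed by -0.11 (95% interval -0.62 to 0.40) and was not called. Xcl1 (-0.85), Il12rb2 (-0.48), the death ligand gene Fasl (-0.36) and Il2rb (-0.33) were lower in SKG NKT1 and not called, and Cxcr3 differed by 0.13. In NKT2 and NKT17, 2 of the 7 were called in each, against 7.95% and 8.37% of all genes. Fasl rose in SKG NKT2 (2.75, SE 0.19) and SKG NKT17 (2.17, SE 0.26), and Il2rb fell in both (-0.64, SE 0.11, and -0.71, SE 0.11).

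Of the 4 type 2 genes, edgeR called 2 in NKT1, 1 in NKT2 and 3 in NKT17 between genotypes, against 3.27%, 7.95% and 8.37% of all genes. The cytokine gene Il4 rose in SKG NKT1 from 7.73, 13.0 and 25.3 CPM to 39.2, 47.1 and 56.1 CPM (log2 1.65, SE 0.32, edgeR adjusted p = 0.00614) and fell in SKG NKT17 by 1.06 (SE 0.32). In NKT2, where Gata3 and Maf fell, Il4 was not called, and Il13 fell from 18.2, 15.4 and 24.4 CPM to 7.05, 4.70 and 8.83 CPM (-1.49, SE 0.48, adjusted p = 0.0609). Il13 was at 0 in SKG NKT17, at least 1.36-fold lower than in WT NKT17 when set against 3 counts per library, and was called there. It was also called as higher in SKG NKT1, at 3, 4 and 6 counts against 0, 0 and 1 (adjusted p = 0.0688). Il17rb rose in SKG NKT17 by edgeR (1.24, SE 0.38) but was not called by DESeq2.

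In NKT17, where none of the 8 tested factors was called, 4 type 17 genes were tested and all 4 were called, against 8.37% of all genes. Ccr6, a chemokine receptor gene, rose from 18.4, 3.65 and 14.1 CPM to 593, 618 and 566 CPM (log2 5.62, SE 0.47, edgeR adjusted p = 5.32e-06). Il23r fell by 0.89 (SE 0.15), Il1r1 by 1.00 (SE 0.32) and Il17a by 2.27 (SE 0.73). Il17a varied widely in WT, at 34.0, 6.09 and 83.3 CPM against 10.5, 8.03 and 6.94 CPM in SKG, and the groups overlapped. DESeq2 called Ccr6 and Il23r alone among these 4.

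Among the other genes tested, Il21 went from 31, 17 and 29 counts in WT NKT2 to 0, 0 and 5 in SKG NKT2 (edgeR adjusted p = 0.0405), and Icos, a costimulatory receptor gene whose product was used in the gates, fell by 0.59 (SE 0.13, adjusted p = 0.00493). DESeq2 called Icos there and not Il21. Of the 3 coreceptor genes, on which ThPOK and the RUNX factors act, edgeR called 0 in NKT1 and NKT2 and 1 in NKT17. The shares of all genes were 3.27%, 7.95% and 8.37%. Cd8b1 rose in SKG NKT17 from 1.76, 11.8 and 6.04 CPM to 36.8, 12.4 and 18.4 CPM (log2 1.78, SE 0.64, adjusted p = 0.0915), beside the DP and CD8 marker sums given above, of which it is a member. Cd8a was lower in SKG NKT1, at a mean of 0.27 against 4.67 CPM. EdgeR did not call it there (-4.07, SE 1.33, adjusted p = 0.129), and DESeq2 did. Cd4 in NKT2, also a gate marker, had a log2 difference of -0.79 (95% interval -1.46 to -0.11, adjusted p = 0.163) and was not called.

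**Figure D5:**
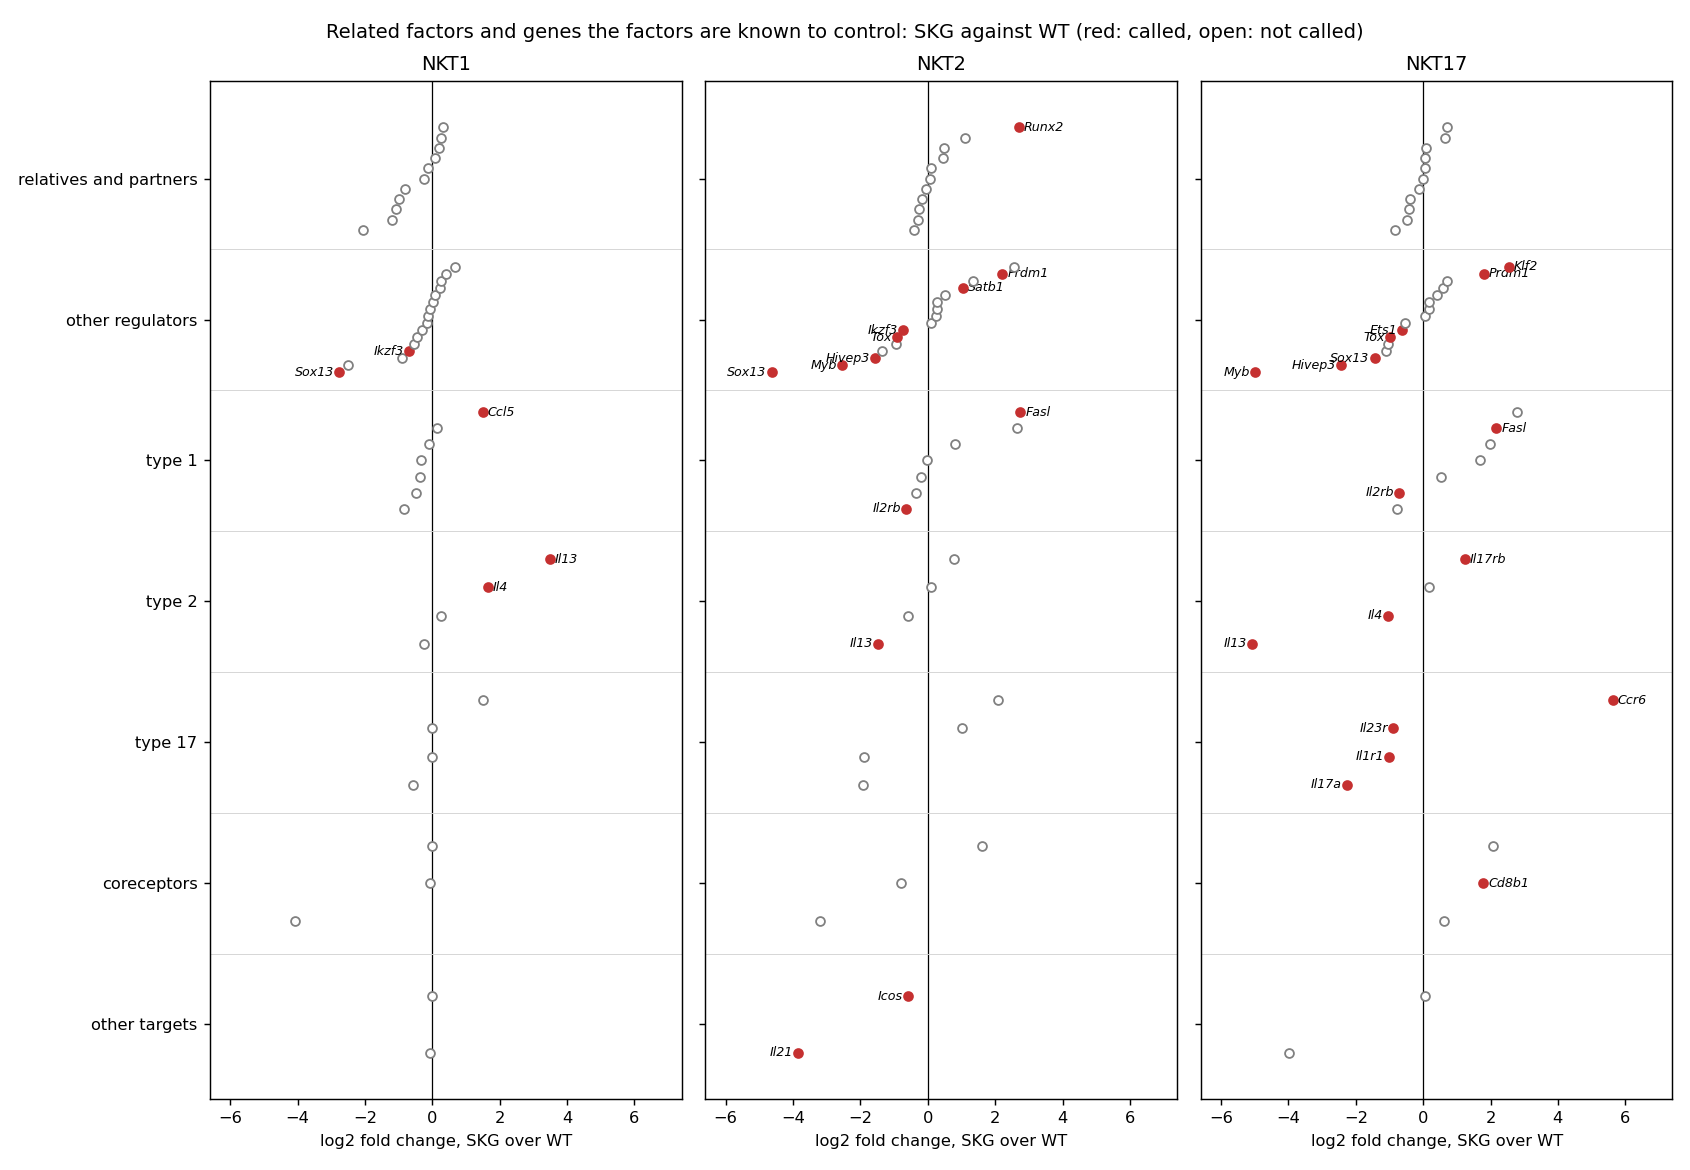
Log2 fold change in SKG over WT of related factors and of genes the factors are known to control, one panel for each subset, with a row for each list and a point for each tested gene. Red points were called and are named, and open points were not. For genes near 0 counts in a group, such as Il13 in NKT17, the fitted value depends on the prior count. Runx2 is the called relative in NKT2, and 4 called type 17 genes appear in NKT17.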

How the data were processed

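Thymic iNKT cell subsets were profiled by Smart-seq2-type poly-A RNA-seq. The authors aligned single-end reads with TopHat and counted them per gene with HTSeq in union mode, after removal of tRNA, rRNA, adapter, spike-in and low-complexity reads, and the deposited values are raw counts per gene symbol. The study's methods and the submitters' processing notes name different mouse builds (mm9, mm10), and the annotation and strand setting are not given in the sources used here. Groups came from the labels, and columns were joined by sample title. A further 2 columns match no listed sample and were not used.

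With edgeR 4.0.16, genes were filtered by filterByExpr (11118 of 15582 with a count), scaled by TMM (factors 0.928 to 1.07) and fitted by a robust quasi-likelihood model of the 6 groups (residual degrees of freedom 12, biological coefficient of variation 21.1%). Tests were two-sided. Standard errors are the log2 fold change over the square root of F. The pipeline was tested on simulated data. RPKM used exon unions of GENCODE M1. Correlations used log2 CPM with a prior count of 2. Reads carry no molecular identifiers. Libraries of a group differed by more than sampling noise (chi-square per degree of freedom at least 5.47) and were kept as 3 replicates. The members and lists were chosen with earlier results of these data known. A few list genes are not reported here, and list counts, marker sums and plots leave them out. Genes named were the members, their 3 best matches, and list genes called or needed beside a member. Alternatives were RLE and upper-quartile scaling, DESeq2 1.42.0, no filter, a mean of 50 counts, an adjusted p under 0.05, no fold minimum, only the libraries compared, a replicate block and each library left out. Ratios of factors and their leave-one-out values were added after seeing the data.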

Additional observations from a re-analysis of the deposited data

Results flagged for a closer look

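The SKG effect differed between subsets for 2 of the 8 tested factors, by edgeR's test of the difference itself. There was 1 called between NKT17 and NKT1, 1 between NKT17 and NKT2 and 0 between NKT2 and NKT1, where 4.17%, 2.19% and 3.87% of all genes were called. In the last of these 2 had an unadjusted p under 0.05, and DESeq2 called 0. For Runx1 the effect in NKT17 minus that in NKT1 was -0.99 on the log2 scale (SE 0.26, adjusted p = 0.0433). Runx1 was higher in all 3 SKG than in all 3 WT libraries of NKT1, and the ranges of the NKT17 libraries overlapped. For Rora the effect in NKT17 minus that in NKT2 was -1.02 (SE 0.26, adjusted p = 0.0544). Rora was higher in all 3 SKG than in all 3 WT libraries of NKT2, and the ranges overlapped in NKT17. The causes were not tested.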

How the results depend on the processing

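Of 96 results of a factor in a comparison, 40 were called, and 32 of these were called in every alternative, including 31 of the 33 between subsets. Of the 56 not called, 45 were called in no alternative. In SKG against WT NKT1, the count of 2 factors became 1 with no filter on low counts and 0 at an adjusted p under 0.05 or with only the libraries compared, and 0 to 2 with a library left out. In NKT17 the count of 0 became 1 with no fold-change minimum or with the block, and 0 to 1 with a library left out. The count of differences of the SKG effect was 0 to 1 with a library left out for NKT2 minus NKT1. For NKT17 minus NKT1 the count of 1 became 2 with RLE scaling, DESeq2 or the block, and 0 to 2 with a library left out. For NKT17 minus NKT2 it became 0 at an adjusted p under 0.05, and 0 to 1 with a library left out. The Rora call there was lost without WT NKT2 replicate 2 or 3, WT NKT17 replicate 3, SKG NKT2 replicate 2, or SKG NKT17 replicate 1 or 3, with values of -0.82 to -1.06. The cause was not tested beyond the smaller number of libraries.

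Signs changed in 34 alternative values of 15 results, none of them called in either form. With the block these were Runx3 in SKG against WT NKT1 (0.185) and NKT17 (0.0789) and Gata3 in WT NKT1 against NKT17 (0.0058). With only the libraries compared they were Zbtb16 in SKG against WT NKT2 (0.01) and Gata3 in WT NKT17 against NKT2 (0.0066). For Zbtb7b in SKG NKT1 against NKT2 they were -0.047 with upper-quartile scaling and -0.0045 with a mean of 50 counts. The others came from leaving out a library. In SKG against WT the values then ran from -0.18 to 0.052 for Runx3 in NKT1, from -0.15 to 0.13 for Zbtb16 in NKT2, and in NKT17 from -0.24 to 0.014 for Gata3 and from -0.67 to 1.28 for Tbx21. In WT, Gata3 ran from -0.12 to 0.063 for NKT1 against NKT2, from -0.12 to 0.13 for NKT1 against NKT17 and from -0.16 to 0.093 for NKT17 against NKT2. In SKG, Gata3 in NKT1 against NKT17 ran from -0.19 to 0.0009, and Zbtb7b in NKT1 against NKT2 from -0.074 to 0.084. For NKT17 minus NKT1 the range was -0.50 to 1.44 for Tbx21, -0.053 to 0.22 for Gata3, -0.038 to 0.31 for Maf and -0.22 to 0.015 for Runx3, and for NKT17 minus NKT2 it was -0.072 to 0.62 for Runx3. The negative values of Tbx21 came without SKG NKT17 replicate 1, which holds 21 counts against 0 and 6 in the other libraries of its group.

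The replicate block used a token in the sample titles whose meaning is not stated in the sources used here. Same-token libraries of compared groups had deviations correlated over 0.1 in 12 of 24 pairs, all of them between subsets of a genotype. Pairs between subsets ran from -0.061 to 0.351, and pairs of SKG with WT from -0.151 to 0.09. Among the other subsets of the genotype, the best match shared the token for 17 of 18 libraries. This is a hint from the data and not from the design, and the fit of the 6 groups holds no term for it. With the block the counts were 2, 3 and 1 for SKG against WT in NKT1, NKT2 and NKT17. Runx1 in NKT1 was then 0.55 (adjusted p = 0.171) and not called, and Maf in NKT1 was -0.63 (adjusted p = 0.0886) and called.

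Upper-quartile scaling shifted the median of all genes by -0.10 in WT NKT1 against NKT2, where the share of calls that were higher went from 50% to 40.9%. Depth limits Eomes in all groups and Tbx21 in NKT17.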
